A study of Mus musculus with 50 samples.

Results

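The enzymes and cofactors encoded by 8 genes set and remove cytosine methylation in mouse cells, and their RNA and the chromatin at their promoters were followed here in embryonic stem cells (ESC) that lack parts of Polycomb Repressive Complex 2 (PRC2). The genes are *Dnmt1*, *Uhrf1*, *Dnmt3a*, *Dnmt3b*, *Dnmt3l*, *Tet1*, *Tet2* and *Tet3*. They were listed by name for their known roles, with no threshold on a measured value, though earlier results of these data were known when they were chosen. They are 8 of the 18055 genes of the RNA-seq table. All 8 passed the filter on low counts (5 normalized counts on average over the libraries), as did 13872 genes in all.

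RNA was measured in 4 ESC lines with 2 libraries each. WT cells are E14TG2a cells, *Ezh2* KO cells carry a large deletion of *Ezh2*, *Ezh1/2* dKO cells lack both PRC2 methyltransferases, and *Ezh2* Y726D cells lack *Ezh1* and carry a catalytically inactive EZH2. A further line, *Ezh2* R685C, carries another EZH2 substitution in *Ezh1* KO cells and was profiled for chromatin but not for RNA in the tables used here. The mutants are CRISPR/Cas9 clones, so a property of a clone and an effect of its genotype cannot be told apart. All lines were grown in medium with serum, LIF and the 2 inhibitors of the 2i condition, which is known to lower DNA methylation in ESC. Chromatin tables hold peaks of the PRC2 subunit SUZ12, of H3K27me3 and H3K27ac, of HA in *Ezh1/2* dKO cells with and without HA-tagged EZH1, and broad regions of H3K27me1, H3K27me2 and ATAC-seq, with 1 library per line and target. DNA methylation itself was not analysed here.

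DNMT1 copies methylation onto newly made DNA, and UHRF1 brings it to hemimethylated sites. DNMT3A and DNMT3B set methylation at new sites, and DNMT3L, which has no catalytic activity of its own, stimulates them. TET1, TET2 and TET3 oxidise 5-methylcytosine as a step towards its removal. In ESC *Tet1* and *Tet2* are the main TET genes, while *Tet3* is best known from the zygote and from differentiated cells. PRC2 is recruited mainly to CpG islands that are free of DNA methylation.

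The sequences on which the chromatin results turn are shown first, 5′ to 3′ on the strand of the gene, with every CG dinucleotide in capitals. All but the second are the 250 bases before a RefSeq transcription start, read from the GRCm38.p6 promoter table and placed on mm9 by exact match. The second is the centre of the WT SUZ12 peak in the first intron of *Dnmt3b*. *Tet3* is shown because it was the gene of the 8 with an H3K27me3 domain, *Dnmt3b* because it carried SUZ12 without an H3K27me3 peak, *Dnmt3l* because the strongest H3K27ac peak at the gene in Y726D cells overlapped it, and *Tet2* because it is richest in CG and had neither SUZ12 nor H3K27me3.
Tet3, chr6:83391673-83391922 (mm9, minus strand): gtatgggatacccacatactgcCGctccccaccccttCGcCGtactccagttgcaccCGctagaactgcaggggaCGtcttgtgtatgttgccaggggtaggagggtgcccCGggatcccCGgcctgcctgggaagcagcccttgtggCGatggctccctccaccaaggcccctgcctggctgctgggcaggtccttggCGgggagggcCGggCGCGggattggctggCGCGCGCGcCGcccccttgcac
Dnmt3b intron 1, chr2:153475592-153475841 (mm9, plus strand): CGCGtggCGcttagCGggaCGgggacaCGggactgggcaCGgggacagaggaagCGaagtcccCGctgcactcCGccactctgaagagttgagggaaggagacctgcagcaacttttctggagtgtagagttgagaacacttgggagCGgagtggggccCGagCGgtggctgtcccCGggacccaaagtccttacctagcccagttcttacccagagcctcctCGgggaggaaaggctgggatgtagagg
Dnmt3l internal start, chr10:77512337-77512586 (mm9, plus strand): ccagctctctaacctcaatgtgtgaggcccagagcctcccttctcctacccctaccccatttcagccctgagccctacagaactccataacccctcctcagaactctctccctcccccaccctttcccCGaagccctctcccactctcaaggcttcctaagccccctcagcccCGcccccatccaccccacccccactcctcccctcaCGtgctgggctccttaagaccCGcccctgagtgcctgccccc
Tet2, chr3:133207355-133207604 (mm9, minus strand): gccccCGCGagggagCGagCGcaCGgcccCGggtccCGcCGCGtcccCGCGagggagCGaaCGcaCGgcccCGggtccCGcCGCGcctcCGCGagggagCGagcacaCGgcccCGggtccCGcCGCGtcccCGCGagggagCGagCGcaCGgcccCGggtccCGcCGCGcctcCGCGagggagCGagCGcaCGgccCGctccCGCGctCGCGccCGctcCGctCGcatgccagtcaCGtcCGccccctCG
The *Tet2* sequence holds 51 CG, a number reached by 0.067% of the 32851 RefSeq promoters over the same 250 bases. The *Tet3* sequence holds 17, reached by 23.5%, and the *Dnmt3b* intron holds 15, reached by 27.3%. The *Dnmt3l* sequence holds 4, below the median promoter, which has 6. Among the 8 genes the promoter richest in CG was thus one without PRC2 peaks.

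The targeted genes were measured first. *Ezh2* had normalized counts of 598 and 546 in WT, 1.05 and 0.968 in *Ezh2* KO, 0.824 and 1.78 in dKO, and 422 and 613 in Y726D cells. *Ezh1* had 227 and 377 in WT, 372 and 378 in *Ezh2* KO, 14 and 20.4 in dKO, and 24.1 and 15.7 in Y726D cells. Both patterns follow the labels. The libraries held 3604123 to 5181553 reads assigned to genes. The 9 naive pluripotency markers, among them *Pou5f1* and *Nanog*, summed to between 13414 and 15793 normalized counts per library and none was called changed in any comparison. The 5 primed epiblast markers summed to 133 and 239 in WT, 444 and 167 in *Ezh2* KO, 381 and 202 in dKO, and 348 and 164 in Y726D cells, and *Pou3f1* was called higher in dKO and Y726D than in *Ezh2* KO cells, where it is listed at 0. The 6 primitive endoderm markers summed to 9.34 and 29.8 in WT, 5.23 and 28.1 in *Ezh2* KO, 71.7 and 111 in dKO, and 41.0 and 48.1 in Y726D cells, with *Gata4* called higher in dKO than in WT. The 5 trophectoderm markers summed to 161 and 60.7 in WT, 150 and 126 in *Ezh2* KO, 261 and 254 in dKO, and 210 and 669 in Y726D cells, with *Gata3* called higher in dKO and Y726D than in WT. The fibroblast list had 4 of its 5 genes in the table, summed to 4.81 to 16.7 in WT and *Ezh2* KO and to 86.1 to 116 in dKO and Y726D cells, and its 1 tested gene, *Thy1*, was called higher in dKO and Y726D cells than in WT. *Pou3f1*, *Gata4*, *Gata3* and *Thy1* were thus higher in some of the comparisons in which a member was called. The 4 markers of the 2-cell-like state summed to 696 and 311 in WT, 23.0 and 19.4 in *Ezh2* KO, 654 and 914 in dKO, and 81.1 and 162 in Y726D cells. Against WT, 3 of them were called lower in *Ezh2* KO, 0 were called in dKO and 2 were called lower in Y726D cells. Over *Ezh2* KO, 4 were called higher in dKO and 3 in Y726D cells, and 2 were called lower in Y726D than in dKO cells. The part of these other states in the results below was not tested. Since the RNA comes from bulk cultures, fewer cells with a transcript and less of it per cell cannot be told apart.

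Each comparison used limma on log2(normalized count + 1) over all 8 libraries, with Benjamini-Hochberg adjustment over 13872 genes. Calls required an adjusted p below 0.1 and a log2 fold change of 1 or more in either direction. Fold changes are on that log2 scale. Because the comparisons with WT share the 2 WT libraries, they are not independent of each other.

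Per kilobase of the longest coding transcript, the WT mean levels were ordered *Uhrf1* (710 normalized counts per kb), *Dnmt3l* (447), *Dnmt1* (370), *Tet1* (204), *Tet2* (183), *Dnmt3b* (174), *Dnmt3a* (75.4) and *Tet3* (6.78). In WT the 2 libraries of *Dnmt3l* (517 and 376) and of *Dnmt1* (383 and 357) overlapped, and so did those of *Tet2* (164 and 202) and *Dnmt3b* (234 and 113), with *Tet1* (202 and 206) inside the range of *Dnmt3b*. *Uhrf1* (826 and 595) lay above the genes after it, and *Tet3* (7.46 and 6.09) lay far below all others. In Y726D cells the mean of *Dnmt3l* (925) was above that of *Uhrf1* (647), with no overlap between the libraries of the 2 genes (915 and 935 against 508 and 787). In dKO cells *Tet3* reached 17.9 per kb and was still the lowest of the 8.

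**Figure D1:**
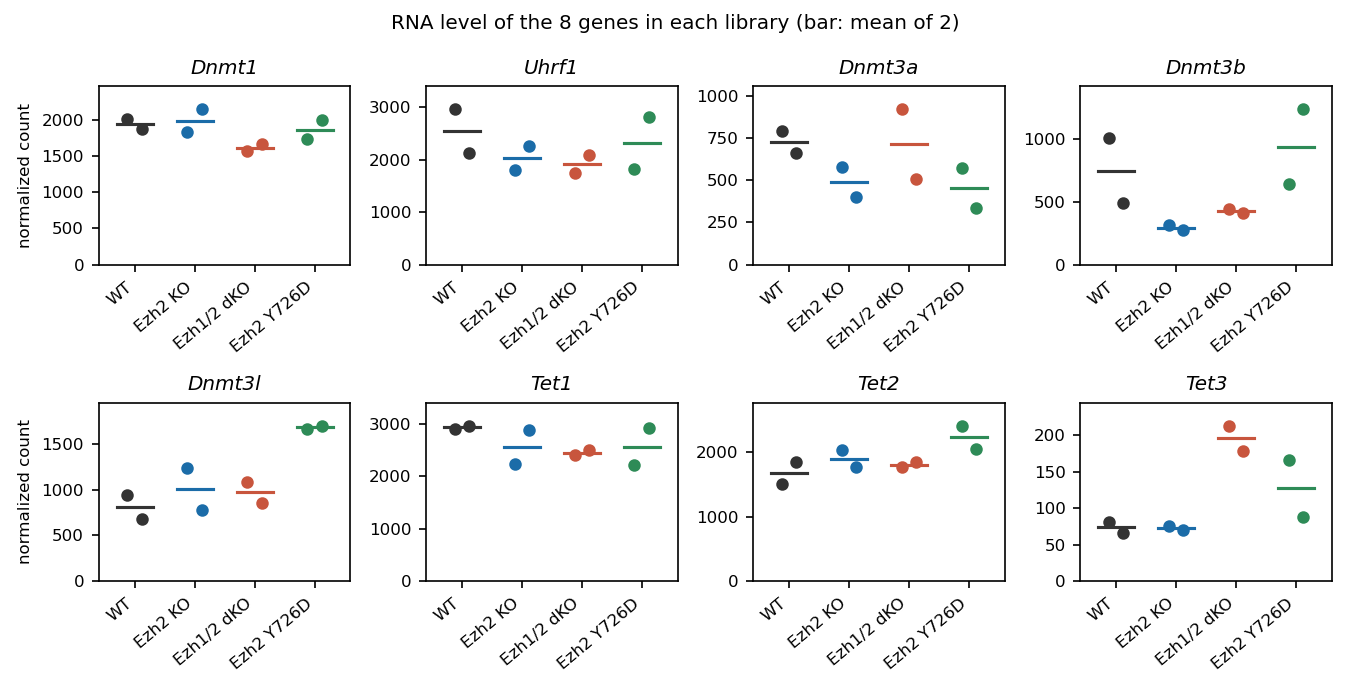
Normalized count (y axis, linear and starting at 0, one scale per gene) of each of the 8 genes in each library (points) of the 4 lines, with bars at the mean of 2 libraries. The *Tet3* points of dKO cells (213 and 178) lie above all points of WT and *Ezh2* KO, the *Dnmt3l* points of Y726D cells (1667 and 1703) lie above all others, and the *Dnmt3b* points of *Ezh2* KO (317 and 272) lie below all others.

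The maintenance genes gave no call in any comparison. *Dnmt1* (mm9 chr9:20711650-20757317, minus strand) had normalized counts of 2017 and 1878 in WT (1947 ± 98.6, SD, n = 2), 1836 and 2146 in *Ezh2* KO (1991 ± 219), 1563 and 1668 in dKO (1616 ± 74.7), and 1735 and 1995 in Y726D cells (1865 ± 184). The dKO libraries were the lowest and did not overlap those of WT or *Ezh2* KO. The log2 difference from WT was -0.27 in dKO (95% interval -0.56 to 0.02, limma adjusted p = 0.298), 0.03 in *Ezh2* KO and -0.06 in Y726D cells. For *Dnmt1* these intervals reach at most 0.59 from 0 in any of the 6 comparisons, so differences of 1 on the log2 scale lie outside them.

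*Uhrf1* (chr17:56442744-56462909, plus strand) varied more between libraries of one line. It had 2963 and 2133 in WT (2548 ± 587), 1812 and 2267 in *Ezh2* KO (2040 ± 322), 1749 and 2092 in dKO (1921 ± 242), and 1821 and 2823 in Y726D cells (2322 ± 708). The lines overlapped except that both dKO libraries lay below both WT libraries. The log2 differences from WT were -0.31 in *Ezh2* KO, -0.39 in dKO and -0.15 in Y726D cells, with an SE of 0.23 each.

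Among the de novo genes, *Dnmt3a* gave no call, *Dnmt3b* was higher in Y726D than in *Ezh2* KO cells, and *Dnmt3l* was higher in Y726D than in WT cells. *Dnmt3a* (chr12:3806007-3914443, plus strand) had 796 and 664 in WT (730 ± 93.4), 579 and 404 in *Ezh2* KO (492 ± 124), 922 and 510 in dKO (716 ± 291), and 574 and 336 in Y726D cells (455 ± 169). Both *Ezh2* KO and both Y726D libraries lay below both WT libraries, while dKO straddled them. The log2 difference of Y726D from WT was -0.73 (SE 0.32, limma adjusted p = 0.35) and that of *Ezh2* KO was -0.59 (SE 0.32, limma adjusted p = 0.655). Over the 461 tested genes of chromosome 12 the median difference of Y726D from WT was -0.30, against -0.01 over all genes, so *Dnmt3a* shares its direction with its chromosome in that clone. In *Ezh2* KO, where *Dnmt3a* differed by -0.59, the median of the chromosome was 0.0. The part of the chromosome in the *Dnmt3a* values was not tested.

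*Dnmt3b* (chr2:153475186-153513466, plus strand) had 1011 and 489 in WT (750 ± 369), 317 and 272 in *Ezh2* KO (294 ± 31.7), 443 and 413 in dKO (428 ± 21.0), and 641 and 1238 in Y726D cells (940 ± 422). The *Ezh2* KO libraries were the lowest of the 8 and the dKO libraries came next, so neither overlapped WT or Y726D cells, which overlapped each other. Between Y726D and *Ezh2* KO cells the log2 fold change was 1.60 (SE 0.36, limma adjusted p = 0.0573), and it was called. Against WT, *Ezh2* KO differed by -1.26 (SE 0.36, limma adjusted p = 0.274), which missed the threshold, as did dKO at -0.72 and Y726D at 0.34. The call between Y726D and *Ezh2* KO was lost without either *Ezh2* KO library (limma adjusted p = 0.201 and 0.295), without either dKO library, which changes only the pooled spread (0.104 each), and without Y726D library 2 (0.236). Conversely, without WT library 2 *Dnmt3b* was called lower in *Ezh2* KO (-1.78, limma adjusted p = 0.0725) and in dKO (-1.24, 0.0959), and without Y726D library 1 it was called higher in Y726D than in dKO cells (1.53, 0.0521).

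The 2 libraries with most *Dnmt3b* were WT library 1 and Y726D library 2, and they were also the 2 with most *Uhrf1*. Y726D library 2 had the highest summed trophectoderm level (669, of which *Cdx2*, a trophectoderm transcription factor, gave 440), while WT library 1 had 161. *Dnmt3b* is a known marker of primed epiblast, and the summed primed epiblast level was 133 in WT library 1, the lowest of all 8, and 164 in Y726D library 2. Between Y726D and *Ezh2* KO cells, where *Dnmt3b* was called, the primed epiblast marker *Pou3f1* was called higher, with normalized counts of 10.7 and 14.5 in Y726D cells and 0 in both *Ezh2* KO libraries, and the 4 tested markers of that list had a median log2 fold change of 1.58. That median takes *Pou3f1* at its fitted value, which depends on the pseudocount. Summed over the 5 markers, the level was not higher in Y726D cells (348 and 164) than in *Ezh2* KO cells (444 and 167). The part of these markers in the *Dnmt3b* values was not tested.

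*Dnmt3l* (chr10:77504692-77526367, plus strand) had 942 and 686 in WT (814 ± 181), 1238 and 775 in *Ezh2* KO (1006 ± 327), 1092 and 856 in dKO (974 ± 167), and 1667 and 1703 in Y726D cells (1685 ± 25.1). Both Y726D libraries lay above the other 6, which overlapped between lines. The log2 fold change of Y726D over WT was 1.07 (SE 0.23, limma adjusted p = 0.0614) and was called. Over dKO it was 0.80 (limma adjusted p = 0.171) and over *Ezh2* KO 0.78 (0.137), and neither passed. The call was lost without WT library 2 (limma adjusted p = 0.175), either dKO library (0.111 each) or Y726D library 2 (0.167).

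Counting did not use strand, and *Aire*, a regulator of transcription in thymic cells, overlaps *Dnmt3l* on the opposite strand. *Aire* had 96.0 and 24.1 in WT, 76.3 and 56.1 in *Ezh2* KO, 154 and 110 in dKO, and 184 and 373 in Y726D cells. It too was called higher in Y726D than in WT cells (log2 2.41, SE 0.58, limma adjusted p = 0.0801), and reads of the 2 genes may be mixed where they overlap. Its counts were far below those of *Dnmt3l*. *Icosl*, a neighbouring gene that encodes a ligand of T cell costimulation and was picked after its values were seen, as was *Aire*, had 50.7 and 42.4 in WT and 143 and 110 in Y726D cells (log2 1.41, limma adjusted p = 0.123, not called).

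Of the TET genes, *Tet3* was higher in dKO cells, while *Tet1* and *Tet2* gave no call. *Tet1* (chr10:62267318-62361866, minus strand) had 2905 and 2965 in WT (2935 ± 42.5), 2236 and 2885 in *Ezh2* KO (2560 ± 458), 2403 and 2499 in dKO (2451 ± 67.8), and 2208 and 2930 in Y726D cells (2569 ± 510). Its log2 differences from WT lay between -0.26 and -0.21, with an SE of 0.16. *Tet2* (chr3:133126643-133207354, minus strand) had 1502 and 1850 in WT (1676 ± 246), 2036 and 1768 in *Ezh2* KO (1902 ± 189), 1766 and 1843 in dKO (1805 ± 54.4), and 2411 and 2051 in Y726D cells (2231 ± 255). Both Y726D libraries were above the other 6, with a log2 difference from WT of 0.42 (SE 0.14, limma adjusted p = 0.216). That difference was below the fold threshold too.

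*Tet3* (chr6:83312367-83391672, minus strand) had 81.4 and 66.4 in WT (73.9 ± 10.6), 75.3 and 69.7 in *Ezh2* KO (72.5 ± 3.97), 213 and 178 in dKO (196 ± 24.2), and 166 and 88.4 in Y726D cells (127 ± 54.8). The dKO libraries were the highest of the 8, WT and *Ezh2* KO overlapped, and both Y726D libraries lay between those groups, with one of them close to WT. The log2 fold change of dKO was 1.39 over WT (SE 0.32, limma adjusted p = 0.0583) and 1.42 over *Ezh2* KO (SE 0.32, limma adjusted p = 0.0582), both called. *Ezh2* KO differed from WT by -0.02 (95% interval -0.74 to 0.69). Y726D differed from WT by 0.71 (limma adjusted p = 0.351) and from dKO by -0.68 (0.406), so it could be placed with neither. The call over WT was lost without WT library 2 (limma adjusted p = 0.12) or either dKO library (0.362 and 0.309), and that over *Ezh2* KO without any one of the 4 libraries compared (0.227 to 0.423).

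Counted over the 8 genes, *Ezh2* KO against WT called none, where the share of all tested genes called was 0.404%. At an unadjusted p below 0.05 it gave 1 gene, *Dnmt3b*, against 8.83% of all genes. There edgeR called none of the 8 and DESeq2 called 1, *Dnmt3b*. The dKO against WT called 1 (*Tet3*, with 4.02% of all genes called), Y726D against WT called 1 (*Dnmt3l*, 2.72%), dKO against *Ezh2* KO called 1 (*Tet3*, 3.58%) and Y726D against *Ezh2* KO called 1 (*Dnmt3b*, 3.53%). Y726D against dKO called none with limma (1.68%), while 2 of the 8 had an unadjusted p below 0.05 (13.1% of all genes), edgeR called none and DESeq2 called 1, *Dnmt3b*. A single call among 8 genes sets the group apart in no comparison. Libraries of the 2 lines did not overlap for 3 of the 8 genes in *Ezh2* KO against WT (35.6% of all genes), for 5 in dKO against WT (52.5%) and for 4 in Y726D against WT (37.1%).

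**Figure D2:**
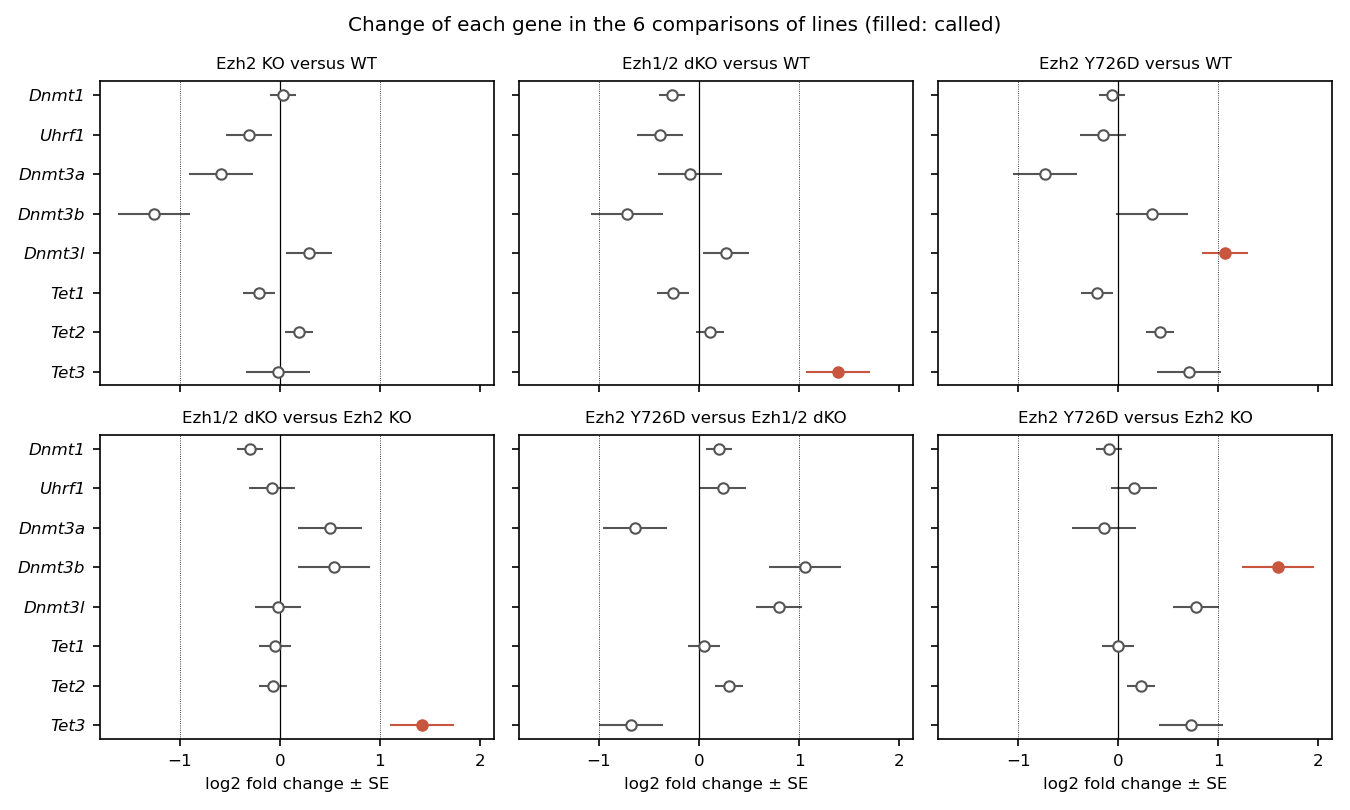
Log2 fold change (x axis) with its SE (bars) of each of the 8 genes (y axis) in the 6 comparisons of lines, with called genes filled and dotted lines at -1 and 1. The 4 filled points are *Tet3* in dKO over WT (1.39) and over *Ezh2* KO (1.42), *Dnmt3l* in Y726D over WT (1.07) and *Dnmt3b* in Y726D over *Ezh2* KO (1.60).

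At the promoters, SUZ12 or H3K27me3 peaks were found at *Tet3*, *Dnmt3b* and *Dnmt3a*, and at *Dnmt3l* in R685C cells. A gene counted as marked where a peak lay within 5 kb of any annotated transcription start, internal starts included. Each list is from 1 library, its depth is not known here, and all peaks of SUZ12, H3K27me3 and H3K27ac had a -log10 p of at least 10. In WT cells SUZ12 marked 2 of the 8 (*Dnmt3b* and *Tet3*), where 14.2% of 22359 protein-coding genes were marked. It marked none in *Ezh2* KO (4.16%) and none in dKO (1.01%), 2 in Y726D, again *Dnmt3b* and *Tet3* (10.1%), and 1 in R685C, *Tet3* (8.31%). H3K27me3 marked *Dnmt3a* and *Tet3* in WT (18.4% of genes) and in *Ezh2* KO (14.5%), none in dKO (0.0939%) or Y726D (1.12%), and *Dnmt3a*, *Dnmt3l* and *Tet3* in R685C (24.0%). H3K27ac marked 6 of the 8 in *Ezh2* KO (36.9% of genes) and 6 in dKO (27.7%), the exceptions in both being *Dnmt3b* and *Tet3*. It marked all 8 in Y726D (46.0%) and all but *Tet3* in R685C (45.0%). The WT H3K27ac list was not analysed here. Lists differed in length, from 17618 H3K27ac peaks in dKO to 41185 in R685C, and a longer list marks more genes.

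*Tet3* lay in one of the broadest H3K27me3 domains of the genome. In the 50 kb around its start, WT H3K27me3 peaks covered 38871 bp, an extent reached by 0.0626% of protein-coding genes. In *Ezh2* KO cells they covered 43122 bp (0.0671% of genes) and in R685C cells 34220 bp (0.0939%), while dKO and Y726D cells had no H3K27me3 peak there. The domain began upstream of the start and ran through the 5′ part of the gene. Over the gene and 10 kb on each side it was split into 35 peaks in WT and 15 in *Ezh2* KO, the longest of the latter within the gene being chr6:83360073-83380370 (20298 bp, -log10 p 195.6).

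SUZ12 peaks covered less of the region than H3K27me3. In WT they covered 7592 bp of the 50 kb around the start, an extent reached by 0.698% of genes. Over the gene and 10 kb on each side WT had 6 SUZ12 peaks, the furthest inside the gene ending 23880 bp past its start. The main WT peak, chr6:83390673-83392324 (1652 bp, -log10 p 58.4), spanned the start and contained the whole *Tet3* sequence printed above. In Y726D cells 1 SUZ12 peak remained in the list, chr6:83391098-83391630 (-log10 p 13.6), just inside the gene, and in R685C cells a peak at chr6:83391001-83391916 (-log10 p 18.6) was accompanied by 8 others between positions 24514 and -9115 relative to the gene start. *Ezh2* KO and dKO cells had none, although *Ezh2* KO cells kept H3K27me3. HA-tagged EZH1 in dKO cells gave a peak at chr6:83391068-83392011, over the same start, and the untagged dKO control gave none. The one H3K27ac peak at *Tet3* in any list, in Y726D cells, was chr6:83391193-83391566 (374 bp, -log10 p 10.5), close to the lower limit of the list.

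The RNA and the marks at *Tet3* can be set side by side. WT and *Ezh2* KO cells had the H3K27me3 domain and the lower RNA level, dKO cells had neither SUZ12 nor H3K27me3 and the higher level, and Y726D cells had SUZ12 without H3K27me3 and libraries at 166 and 88.4. These are 4 lines with 1 chromatin library each, so the relation was not tested.

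**Figure D3:**
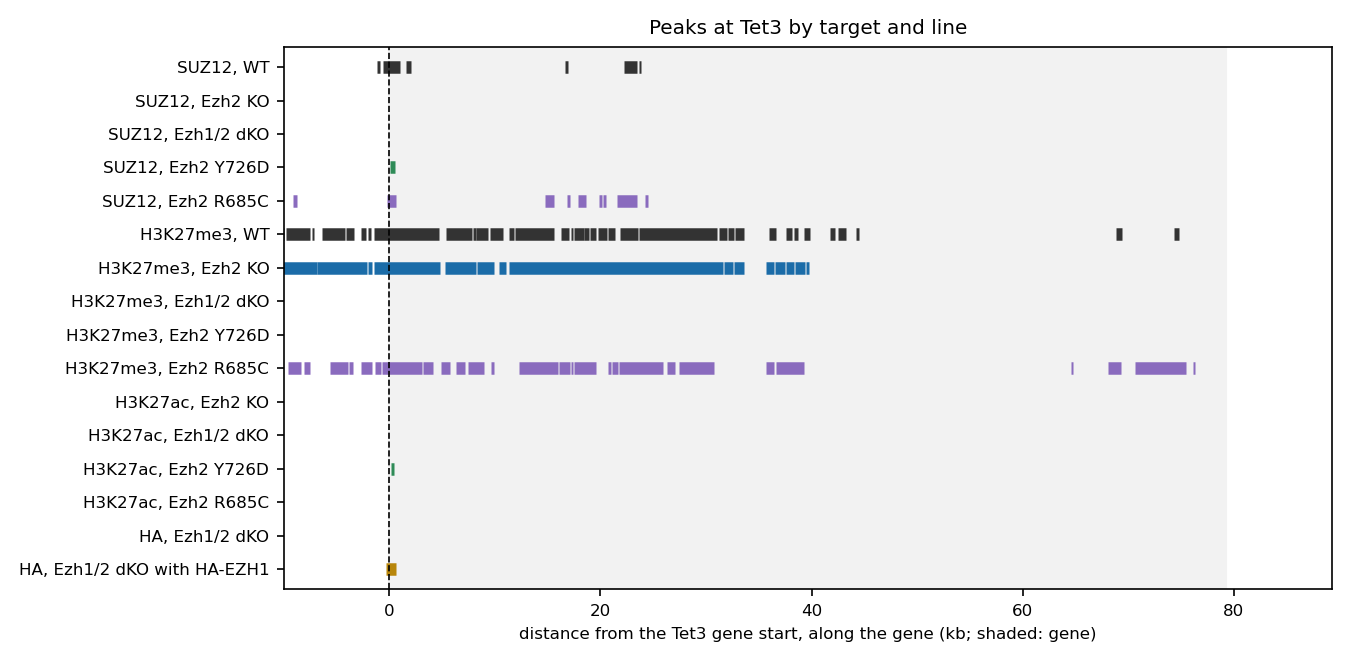
Peaks (bars) at *Tet3* by target and line (rows) against the distance from the gene start along the gene (x axis, kb, gene shaded). H3K27me3 fills much of the region from upstream to about the middle of the gene in WT, *Ezh2* KO and R685C cells (with further peaks near the gene end in WT and R685C) and is not listed in dKO and Y726D cells. SUZ12, HA-tagged EZH1 and the 374 bp H3K27ac peak of Y726D cells meet at the start, with further SUZ12 peaks inside the gene in WT and R685C cells.

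The broad regions at *Tet3* set it apart from the other 7 in *Ezh2* KO cells. H3K27me2 regions covered 3.63% of its gene body in WT, 99.4% in *Ezh2* KO (an extent reached by 5.73% of genes, with a median over genes of 0%), 31.9% in dKO and 46.8% in Y726D cells. H3K27me1 regions covered 2.78% in WT, 68.0% in *Ezh2* KO and 30.3% in dKO, and its chromosome is not in the Y726D list. With only regions of a -log10 p of at least 3 kept, the median coverage over the 8 genes was 0% in every line for H3K27me1, H3K27me2 and ATAC-seq. Most regions of these lists have a low score, at *Tet3* up to a -log10 p of 7.45 for H3K27me2 in *Ezh2* KO cells. In dKO cells, which lack both enzymes, the H3K27me2 list still covered a median of 12.1% of gene bodies. In WT cells H3K27me1 covered 86.7% of the gene body of *Dnmt1*, 85.1% of *Dnmt3b*, 74.7% of *Uhrf1*, 69.5% of *Tet1*, 66.3% of *Tet2*, 51.5% of *Dnmt3l* and 27.6% of *Dnmt3a*, against a median of 8.95% over all genes. In *Ezh2* KO cells it covered 0% of *Dnmt1*, *Uhrf1*, *Tet1* and *Tet2*, 1.5% of *Dnmt3b*, 6.57% of *Dnmt3l* and 36.9% of *Dnmt3a* (all genes 0.534%, over the 19 chromosomes in that list, which include those of the 8 genes). *Tet3*, the member with the lowest RNA level, was thus the one with least H3K27me1 in WT and the one with most in *Ezh2* KO cells.

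*Dnmt3b* carried SUZ12 in its first intron. The WT peak was chr2:153475539-153475894 (-log10 p 13) and the Y726D peak chr2:153475316-153475943 (-log10 p 19.0), both over the intron sequence printed above. No line had an H3K27me3 peak within the gene or 10 kb of it. H3K27ac was found near the start in Y726D (4 peaks within 5 kb, the highest -log10 p 17.3) and R685C cells (3 peaks, 15.5). It was found there in neither *Ezh2* KO nor dKO cells, which also had the lower RNA levels of the lines measured. The H3K27ac lists of *Ezh2* KO (25483 peaks) and dKO (17618) were shorter than those of Y726D (40829) and R685C (41185). WT H3K27ac was not analysed and R685C RNA was not available here, so the relation to RNA was not tested. The first Y726D H3K27ac peak, chr2:153475491-153475914, lay over the SUZ12 peak of the same line. ATAC-seq regions covered 60.6% of the 10 kb around its starts in dKO cells, against 24.0% in WT, 32.7% in *Ezh2* KO and 26.2% in Y726D cells. These regions had low scores, and the highest -log10 p there was lowest in dKO cells (1.54, against 1.825 in WT, 2.33 in *Ezh2* KO and 1.89 in Y726D cells).

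At *Dnmt3l*, H3K27ac was most extensive in the line with most RNA. Over the gene and 10 kb on each side, peaks covered 2602 bp in *Ezh2* KO (4 peaks), 3404 bp in dKO (6 peaks), 6135 bp in R685C (7 peaks) and 15545 bp in Y726D cells (13 peaks). The highest -log10 p was 25.5, 21.6, 40.6 and 84.4 in the same order. In all 4 lines that highest peak overlapped the sequence before the internal start printed above, and in Y726D cells it was chr10:77511517-77512477. In the 50 kb around the gene start the Y726D extent (14420 bp) was reached by 0.908% of genes in that line, the R685C extent by 13.7%, the dKO extent by 3.21% and the *Ezh2* KO extent by 13%. The R685C and Y726D lists were of similar length (41185 and 40829 peaks), with less H3K27ac at *Dnmt3l* in R685C cells. R685C RNA was not available here, and the relation of H3K27ac to RNA was not tested.

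No SUZ12 peak lay on *Dnmt3l* itself. About 5 kb past its end, WT cells had SUZ12 at chr10:77531543-77532993 (-log10 p 29.9) and H3K27me3 at chr10:77532470-77533053 (19.5). Y726D cells had SUZ12 there (chr10:77531926-77532748, -log10 p 21.3) with H3K27ac (chr10:77531828-77532952, 20.6) and no H3K27me3, and R685C cells had H3K27me3 (chr10:77532260-77533089, 21.2) and no SUZ12. An HA peak in untagged dKO cells lay within *Dnmt3l*, and none was found there with tagged EZH1.

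**Figure D4:**
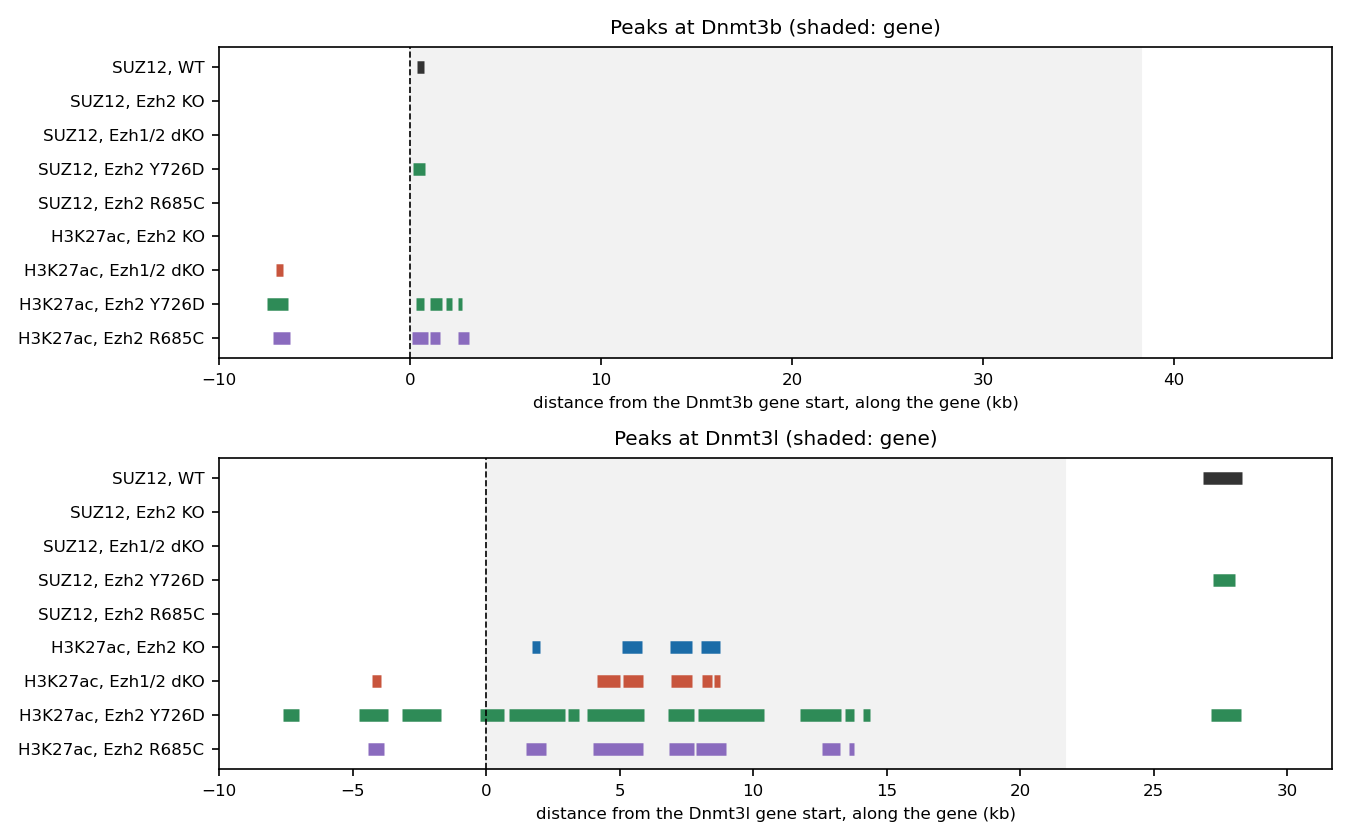
SUZ12 and H3K27ac peaks (bars) by line (rows) at *Dnmt3b* (top) and *Dnmt3l* (bottom) against the distance from the gene start along the gene (x axis, kb, gene shaded). H3K27ac lies just after the *Dnmt3b* start in Y726D and R685C cells alone, and covers more of *Dnmt3l* in Y726D (13 peaks) than in *Ezh2* KO (4), dKO (6) and R685C cells (7).

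*Dnmt3a* had H3K27me3 without SUZ12. The WT peaks lay between positions -1216 and -272 relative to the gene start (2 peaks, 888 bp in all, highest -log10 p 15.8), and *Ezh2* KO (3 peaks, 1864 bp) and R685C cells (3 peaks, 1261 bp) had similar ones, while dKO and Y726D cells had none. Its H3K27ac peaks lay mostly 83239 to 87254 bp inside the gene, near an internal start, in dKO, Y726D and R685C cells. The 1 peak of *Ezh2* KO cells lay 64943 to 65448 bp inside, 4759 bp from an internal start. Y726D cells also had a peak 2086 to 2580 bp past the gene start (-log10 p 11.3).

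*Dnmt1*, *Uhrf1*, *Tet1* and *Tet2* had neither SUZ12 nor H3K27me3 within 10 kb in any line, and H3K27ac at a start in each of the 4 lists. The highest -log10 p at *Tet1* was 45.5 in *Ezh2* KO, 43.0 in dKO, 64.0 in Y726D and 106.1 in R685C cells. H3K27ac at *Tet2* covered 13332 bp of 50 kb in *Ezh2* KO, 12164 bp in dKO, 20218 bp in Y726D and 20313 bp in R685C cells, extents reached by at most 0.765% of genes in each line. At *Tet1* it covered 11141 bp in *Ezh2* KO, 10245 bp in dKO, 15842 bp in Y726D and 20750 bp in R685C cells. Both TET genes of ESC thus lay in some of the broadest acetylated regions in every mutant measured.

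The rest of the pathway was described by 6 lists. They were drawn up with earlier results of these data known, and the share of all genes called in each comparison is given above. The 19 genes that target or assist the methyltransferases had medians of -0.07, -0.13 and 0.01 against WT in *Ezh2* KO, dKO and Y726D cells, close to the medians over all genes (-0.01, 0.01 and -0.01). *Dppa3*, whose protein keeps UHRF1 off chromatin and shields maternal DNA from TET3 in the zygote, had 176 and 106 in WT, 170 and 114 in *Ezh2* KO, 283 and 414 in dKO, and 21.4 and 20.1 in Y726D cells. It rose in dKO (log2 1.32 over WT, SE 0.33, limma adjusted p = 0.0775) and fell in Y726D (log2 -2.66, SE 0.33, 0.0113), so that the 2 lines without H3K27me3 at *Tet3* lay on either side of WT. The difference between those lines was itself called (Y726D over dKO, log2 -3.98, limma adjusted p = 0.0015). *Cdca7l*, a paralogue of the HELLS partner *Cdca7*, rose in dKO (128 and 116 in WT, 295 and 234 in dKO, log2 1.10, limma adjusted p = 0.0308) and was 0.73 above WT in Y726D cells, not called. The lowest values were *Nsd2* at -0.74 in *Ezh2* KO and *Usp7*, a deubiquitinase that stabilises DNMT1 and UHRF1, at -0.54 in dKO (limma adjusted p = 0.0422, below the fold threshold). *Prdm14*, which represses the *Dnmt3* genes in naive ESC, was the highest in *Ezh2* KO at 0.70 and was not called.

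Of the 17 readers of methylated and unmethylated CpG, 16 were tested and none was called by limma in any of the 6 comparisons. Over the 3 comparisons with WT, 5 of them had an unadjusted p below 0.05 in at least 1, as did 29.0% of all tested genes, edgeR called none and DESeq2 called 1. *Bcor*, a subunit of a PRC1 variant that reads CpG islands, had the highest difference from WT in all 3 lines (0.52, 0.67 and 0.79). *Cxxc1*, which binds unmethylated CpG, was lowest in *Ezh2* KO at -0.76 and was -0.98 in dKO (limma adjusted p = 0.0512, below the fold threshold). *Zbtb38*, a methyl-CpG-binding zinc finger protein, was -1.21 in dKO and -1.25 in Y726D cells (limma adjusted p = 0.181 and 0.216).

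None of the 15 tested genes of oxidised-cytosine removal and base excision repair was called, with 4 at an unadjusted p below 0.05 over the comparisons with WT (29.0% of all genes) and none by edgeR or DESeq2. *Neil3*, a DNA glycosylase, was the highest in each line (1.19, 1.2 and 0.60), and *Gadd45g* the lowest in *Ezh2* KO (-2.40, limma adjusted p = 0.362) and Y726D cells (-1.31), with *Gadd45a* the lowest in dKO (-1.16). None of the 16 genes of TET cofactor supply and TET partners was called either, with 1 at an unadjusted p below 0.05 and none by edgeR or DESeq2. *Glud1*, which makes 2-oxoglutarate from glutamate, was lowest in *Ezh2* KO (-0.40) and dKO (-0.53, limma adjusted p = 0.0952, below the fold threshold), and *Idh1* was lowest in Y726D cells (-0.48). *Slc23a2*, a vitamin C transporter, was highest in *Ezh2* KO (0.53) and Y726D (0.05), and *D2hgdh* in dKO (0.47).

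In the methyl donor cycle, which makes S-adenosylmethionine, 16 of 17 genes were tested. *Nnmt*, which uses up methyl groups by methylating nicotinamide, had 25.3 and 36.6 in WT, 19.9 and 50.3 in *Ezh2* KO, 84.9 and 210 in dKO, and 4.46 and 5.59 in Y726D cells. It rose in dKO (log2 2.1, SE 0.57, limma adjusted p = 0.0953) and fell in Y726D (log2 -2.39, SE 0.57, 0.0795). *Nnmt* thus moved in the same 2 directions as *Dppa3*. *Gnmt*, a glycine methyltransferase, was called in 1 comparison, lower in Y726D than in *Ezh2* KO (log2 -2.07, limma adjusted p = 0.0956), and was the highest gene in *Ezh2* KO against WT at 0.62. *Mat2a* and *Mat2b*, the subunits of methionine adenosyltransferase, were the lowest in *Ezh2* KO (-0.22) and dKO (-0.45), and *Mtap* the highest in Y726D (0.12). Against WT, *Nnmt* was thus the 1 gene of the list called in dKO and in Y726D cells, and the list medians were 0.01, -0.11 and -0.10. Without either WT library or either dKO library, 0 genes of the list were called against WT.

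The last list holds germline genes whose CpG-island promoters are known to be kept silent by DNA methylation. Since DNA methylation was not analysed here, its part in their RNA levels was not tested. Of 15 tested, none was called in *Ezh2* KO against WT (3 at an unadjusted p below 0.05), 4 were higher in dKO and 2 were higher in Y726D cells, and none was lower. Of all tested genes, 3.63% were called higher in dKO and 1.66% in Y726D cells. The list median was 0.02 in *Ezh2* KO, 0.83 in dKO and 0.27 in Y726D cells. *Tex101*, a germ cell surface protein, had 2.67 and 9.63 in WT, 19.9 and 11.6 in *Ezh2* KO, 93.1 and 68.4 in dKO, and 16.0 and 22.4 in Y726D cells (dKO over WT log2 3.69, SE 0.58, limma adjusted p = 0.0217). *Tex11*, a meiosis gene, had 56.0 and 76.1 in WT, 167 and 82.2 in *Ezh2* KO, 378 in both dKO libraries, and 292 and 168 in Y726D cells, and was called in dKO (2.51, 0.0157) and Y726D (1.75, 0.0537). *Mael*, a piRNA pathway gene, was called in both lines as well (dKO 1.10, limma adjusted p = 0.0937, and Y726D 1.52, 0.0467), and *Dazl*, an RNA-binding protein of germ cells, in dKO (1.52, 0.0628). The lowest values against WT were *Taf7l* in *Ezh2* KO (-0.89), *Sycp3* in dKO (-0.88) and *Dpep3* in Y726D cells (-1.80), none of them called. *Dpep3* was near the floor, with 9.34 and 9.63 in WT and 8.02 and 0 in Y726D cells. *Taf7l* was called higher in dKO than in *Ezh2* KO cells (log2 1.74, SE 0.42, limma adjusted p = 0.0763). Without either dKO library, 1 gene of the list was called over the comparisons with WT, against 4 with all libraries.

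**Figure D5:**
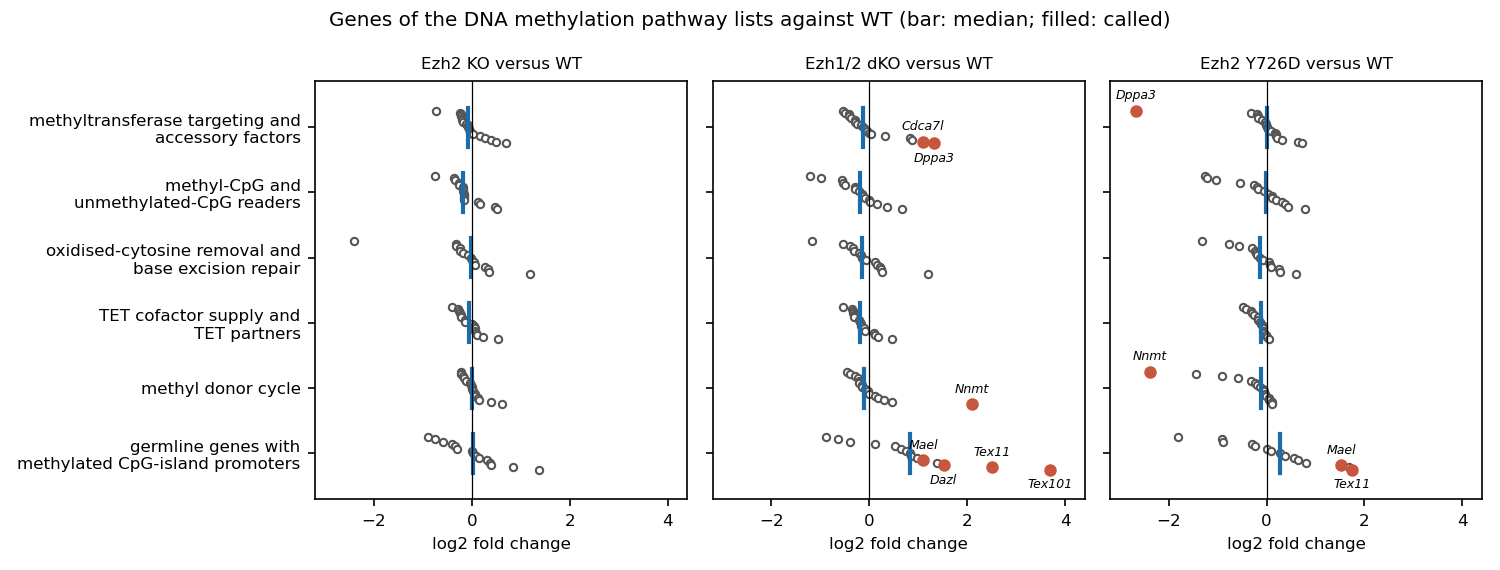
Log2 fold change against WT (x axis) of the tested genes (points) of the 6 pathway lists (y axis) in *Ezh2* KO, dKO and Y726D cells, with called genes filled and named and bars at the list medians. Medians lie near 0 except that of the germline list in dKO (0.83) and Y726D cells (0.27), and *Dppa3* and *Nnmt* are filled on opposite sides of 0 in dKO and Y726D cells.

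Across the 8 libraries, the genes whose levels ran most like each member were found among 9770 genes averaging 50 normalized counts or more, by Pearson's r of log2(normalized count + 1). The libraries come from 4 lines and share their depth scaling, so r describes them and carries no test. They were *Napepld* (0.95) and *Cand2* (0.943) for *Dnmt1*, *Rab18* (0.984) and *Daxx* (0.983) for *Uhrf1*, *Dmxl1* (0.937) and *Ncoa7* (0.923) for *Dnmt3a*, and *Ehd4* (0.99) and *Spata6* (0.972) for *Dnmt3b*. For *Dnmt3l* they were *Maoa* (0.966) and *Polr3d* (0.946), for *Tet1* *Srrm2* (0.991) and *Zfp598* (0.945), for *Tet2* *Lgals3* (0.957) and *Lgals9* (0.955), and for *Tet3* *Sh3bgrl* (0.973) and *1110007C09Rik* (0.967). Between the members, r ran from -0.86 for *Dnmt1* and *Tet3* to 0.81 for *Uhrf1* and *Tet1*, and the 3 *Dnmt3* genes were not alike (-0.07 for *Dnmt3a* and *Dnmt3b*, -0.26 for *Dnmt3a* and *Dnmt3l*, 0.49 for *Dnmt3b* and *Dnmt3l*).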

How the data were processed

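RNA was extracted from 4 ESC lines, 2 libraries each, and libraries were made with SMART-seq2. The authors aligned reads to mm9 with TopHat v2.1.1, removed duplicates with PICARD, counted RefSeq genes without strand with HTSeq-count v0.8.0 (intersection-nonempty) and deposited counts normalized with DESeq2 v1.20, a signal per gene scaled by library size factors. The values gave back whole reads (100% of them, tolerance 0.001), with 3604123 to 5181553 reads per library. The peak lists deposited by the authors, made with Bowtie, Picard and MACS2 per the labels, give each peak's -log10 p, except the HA lists, which give positions only. Deposited comparison tables hold the authors' fold changes and p-values and were not used.

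Groups came from the labels. Nothing states that libraries of a line are separate cultures, so p-values measure only the spread between these samples, which may be technical. limma 3.58.1 (R 4.3.3, trended empirical Bayes) was fitted to log2(normalized count + 1) for 13872 genes with a mean of at least 5, with all 8 libraries sharing one spread, and checked on simulated data. Alternatives were edgeR 4.0.16 and DESeq2 1.42.0 on the recovered reads, other pseudocounts, filters, scalings and thresholds, the 4 libraries of a comparison alone, a replicate block and leaving out each library. SUZ12 and H3K27me3 samples labelled Y726D without mention of *Ezh1* were taken as the same line as the others.

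Genes were matched to the mm9 annotation (16570 by symbol, 814 through a synonym, 671 unmatched), and peaks were assigned within 5 kb of any coding start or read over the gene and 10 kb on each side. RefSeq promoters (GRCm38.p6) of all 8 genes were found on mm9 by exact match. Tables were handled with Python 3.11.15, pandas 2.3.3 and numpy 2.4.6, and drawn with matplotlib 3.10.9. One list gene is not reported here. The members and all lists were chosen with earlier results of these data known. Named genes were all members, the 2 targeted genes, each list gene called in any comparison or with the highest or lowest value against WT, and the 2 genes most like each member.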

Additional observations from a re-analysis of the deposited data

Results flagged for a closer look

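Between mutant lines, 2 effects against WT differed by a test of the difference itself in the same limma fit. *Tet3* was higher in dKO than in *Ezh2* KO cells by a log2 fold change of 1.42 (SE 0.32, adjusted p = 0.0582), with both dKO libraries above both *Ezh2* KO libraries. *Dnmt3b* was higher in Y726D than in *Ezh2* KO cells by 1.60 (SE 0.36, adjusted p = 0.0573), again with no overlap between libraries. Such a lack of overlap was common, at 53.5% of all tested genes in dKO against *Ezh2* KO and 44.3% in Y726D against *Ezh2* KO.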

How the results depend on the processing

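Over 18 alternative settings, the 8 genes gave 864 log2 fold changes in the 6 comparisons. Of these, 769 either kept a call, whatever the size of the move, or stayed uncalled and moved by less than the SE of the main fit. A further 70 stayed uncalled and moved by more, 20 lost a call and 5 gained one. No called value changed sign, and 37 uncalled ones did, with values of at most 0.34 in either direction. *Tet3* stayed called in 15 of 18 settings in dKO over WT (log2 1.25 to 1.54, adjusted p = 0.00762 to 0.362) and in 13 of 18 over *Ezh2* KO (1.29 to 1.54, 0.00402 to 0.423). *Dnmt3l* in Y726D over WT (0.84 to 1.30, 0.000745 to 0.175) and *Dnmt3b* in Y726D over *Ezh2* KO (1.12 to 2.07, 3.13e-05 to 0.295) each stayed called in 12 of 18. Where 1 library of a line was left, it was assumed to vary like the other lines. The number of the 8 genes called ranged from 0 to 1 in each of the 6 comparisons when one library was left out.

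At an adjusted p below 0.05 the number called fell to 0 in the 4 comparisons that had a call. At an unadjusted p below 0.05 it was 1 in *Ezh2* KO against WT (8.83% of all genes), 1 in dKO against WT (18.6%), 2 in Y726D against WT (14.3%), 2 in dKO against *Ezh2* KO (13.4%), 2 in Y726D against dKO (13.1%), and 3 in Y726D against *Ezh2* KO (15.8%). DESeq2 called 1 gene, *Dnmt3b*, in *Ezh2* KO against WT and in Y726D against dKO, where limma called 0. Without a filter on low values the count was 0 in Y726D against WT and against *Ezh2* KO, with more genes to adjust over. It was 0 in Y726D against WT with only the 4 libraries compared, and 0 in dKO against *Ezh2* KO with quantile normalization (the cause was not tested).

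Deviations of replicate 1 correlated at 0.223 to 0.288 between the mutants, and at -0.409 to -0.065 between WT and each mutant. Replicate numbers thus gave no pairing shared by all lines. A library effect with WT in the other order was not tested, and a replicate block would not remove it. A fit with the replicate number as a block kept all 4 calls (*Tet3* over WT 1.39). It changed no count of calls by more than 1.5 times.

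For the lists, counted over the comparisons with WT, leaving out one library gave 1 to 3 genes for methyltransferase targeting (2 in all libraries), 0 to 1 for readers (0), 0 to 1 for oxidised-cytosine removal (0), 0 to 0 for TET cofactors (0), 0 to 3 for the methyl donor cycle (1) and 1 to 6 for germline genes (4). At an adjusted p below 0.1 with any fold the targeting list gave 6, readers 1 and TET cofactors 1. At an unadjusted p below 0.05 the lists gave 8, 5, 4, 1, 6 and 9 in the same order, with 29.0% of all tested genes below it in at least 1 of the 3 comparisons. Readers gave 1 with DESeq2 and 1 with only the 4 libraries compared. The methyl donor list gave 0 without a filter or at an adjusted p below 0.05. The chromosome 12 median in Y726D cells ran from -0.31 to -0.26 when one library was left out.

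With peaks of p at most 1e-20, SUZ12 marked 1 gene in WT, 0 in Y726D and 0 in R685C, H3K27me3 marked 1 (*Tet3*) in each of WT, *Ezh2* KO and R685C, and H3K27ac marked 3 in dKO. With 1 kb on each side of a start the HA peak of untagged dKO cells marked 0 genes. For H3K27me1, H3K27me2 and ATAC-seq, the median coverage over the 8 genes was 0 in every line when only regions with a -log10 p of at least 3 were kept. Counting RefSeq starts too, an alternative chosen after seeing the data, changed no count of marked genes. The depth of the chromatin libraries is not known here, so a missing peak is not a missing mark.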
